A study of Rattus norvegicus with 18 samples.

Results

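The genes described here are targets of the aryl hydrocarbon receptor, AhR, measured in rat primary hepatocytes after exposure to 4 related compounds. The listed genes were Cyp1a1, Cyp1a2, Cyp1b1, Aldh3a1, Tiparp, Ahrr and Ugt1a6. A probe counted for a gene when its annotated accession, with the version dropped, belonged to that gene in RefSeq. This gave 10 of the 45598 probes of the array and 6 of the 7 genes. No probe was matched to Tiparp. Cyp1a1, Aldh3a1 and Ahrr had 1 probe each, Cyp1a2 and Ugt1a6 had 2 each, and Cyp1b1 had 3. Of these 10 probes, 8 were tested among 25306 probes. The other 2, both for Cyp1b1, were not well above background on any of the 18 arrays.

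The cells were cryopreserved hepatocytes of male Sprague Dawley (SD) rats, cultured for 24 h before exposure. All exposures lasted 24 h, and every compound was given at 300 µM. VC_1 and VC_2 were DMSO controls, and the compounds are known here by the codes DDMB, CDMB, CDEB and DDEB, which the title of the series groups as p-dialkoxy chlorobenzenes. Each of the 6 groups had 3 arrays from separate experiments. DDMB, CDMB and CDEB belong with VC_1 on 1 chip lot and DDEB with VC_2 on another. Whether each experiment used another animal is not given, so the p-values cover only the spread from culture to culture, which may be technical. Isolated hepatocytes in culture lack the circulation and most of the other cells of the liver, which limits the cells as a model of the organ.

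AhR is a transcription factor that waits in the cytoplasm bound to chaperones. When a ligand such as dioxin or a polycyclic aromatic hydrocarbon binds it, AhR moves to the nucleus, pairs with ARNT and binds DNA at a short motif, GCGTG, near its target genes. Cyp1a1, Cyp1a2 and Cyp1b1 encode cytochrome P450 enzymes that oxidise aromatic compounds, Aldh3a1 encodes an aldehyde dehydrogenase and Ugt1a6 a glucuronosyltransferase. Ahrr and Tiparp encode repressors of AhR that it induces itself. In liver, Cyp1a1 is the classic indicator of AhR activation, while Cyp1a2 is also expressed by hepatocytes without an inducer.

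RefSeq start-site sequences (build GRCr8) were at hand for 5 of the 7 genes, Cyp1a2, Cyp1b1, Tiparp, Ahrr and Ugt1a6. The 250 bases upstream of the start were searched on both strands for GCGTG. For comparison, 25.9% of 33469 such windows held it, and 4.09% held the longer form TNGCGTG, which contains GCGTG. The windows of Ahrr, Cyp1b1 and Cyp1a2 are shown 5′ to 3′ because they span the range among the tested genes, from 3 copies to none. Capitals mark GCGTG or its reverse complement. The windows are chr1:30821969-30822218 on the plus strand for Ahrr, chr6:21094315-21094564 on the plus strand for Cyp1b1 and chr8:66978150-66978399 on the minus strand for Cyp1a2.
Ahrr: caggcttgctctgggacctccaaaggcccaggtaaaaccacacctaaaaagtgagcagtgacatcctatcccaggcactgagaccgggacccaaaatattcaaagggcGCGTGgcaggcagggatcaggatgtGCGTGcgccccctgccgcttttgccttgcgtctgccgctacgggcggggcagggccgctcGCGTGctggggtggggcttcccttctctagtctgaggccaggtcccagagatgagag
Cyp1b1: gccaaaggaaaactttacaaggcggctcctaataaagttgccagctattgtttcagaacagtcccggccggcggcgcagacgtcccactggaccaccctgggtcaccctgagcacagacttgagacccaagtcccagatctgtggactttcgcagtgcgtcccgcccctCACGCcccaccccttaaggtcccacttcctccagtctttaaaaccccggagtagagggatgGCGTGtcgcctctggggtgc
Cyp1a2: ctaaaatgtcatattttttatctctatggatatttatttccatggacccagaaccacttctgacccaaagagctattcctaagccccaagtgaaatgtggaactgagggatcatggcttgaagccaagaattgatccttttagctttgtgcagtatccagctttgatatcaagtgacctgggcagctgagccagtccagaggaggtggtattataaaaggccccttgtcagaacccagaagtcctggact
Ahrr held 3 copies, starting 142, 117 and 57 bases before the start, and the copy at 57 had the longer form. Cyp1b1 held 2 copies, at 81 and 20 bases, and the copy at 20 had the longer form. Ugt1a6 held 1 copy at 133 bases and Tiparp 1 at 136 bases. The window of Cyp1a2 held no copy. These matches describe letters in a short window.

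Values are log2 of the processed intensity minus the 75th percentile of the array, called relative signal below, so that a difference of 1 is a 2-fold change. The 75th percentile ranged from 421 to 640 intensity units over the arrays, and between 61.0% and 64.3% of probe spots were well above background. All 10 hepatocyte marker genes, such as Alb and Ttr, were well above background on all 18 arrays. Markers of other liver cells passed the filter on dim probes less often: 4 of 9 Kupffer cell, 6 of 9 stellate cell or fibroblast, 3 of 6 endothelial and 3 of 5 bile duct markers did. Over the whole array 25306 of 45598 probes passed it, so these counts do not show how many such cells there were. In VC_1 the means of the markers that passed ran from -4.93 for Krt7 to 3.14 for Vwf. VC_1 and DDMB shared slide 1, CDMB and CDEB shared slide 4, VC_2 and 2 DDEB arrays shared slide 2, and the remaining DDEB array was alone on slide 3. Comparisons of CDMB or CDEB with VC_1 or DDMB therefore run across slides, and there the slide cannot be told apart from the compound. A dim spike-in control, as a share of the signal of a bright one, was 1.98% to 2.04% in VC_1, 1.78% to 2.02% in DDMB, 1.23% to 1.32% in CDMB and 1.21% to 1.28% in CDEB. On the other lot this share was 1.73% to 1.83% in VC_2 and 1.09% to 1.66% in DDEB. The 2 DDEB arrays on slide 2 with VC_2 read 1.09% and 1.18%. In bulk RNA, fewer cells of a type and less RNA per cell cannot be told apart.

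Aldh3a1 fell with DDMB and was the only tested gene of the group that passed the test with any compound. Aldh3a1 oxidises aromatic and medium-chain aldehydes, and in rat liver it is known as the dioxin-inducible aldehyde dehydrogenase. Its probe was printed as 10 spots per array, and it was well above background on all 18 arrays. In VC_1 its relative signal was -3.05, -3.04 and -3.20 (mean -3.09 ± 0.088, SD, n = 3). With DDMB it was -4.19, -3.95 and -3.96 (mean -4.03 ± 0.13, SD, n = 3). Every DDMB array lay below every VC_1 array. The difference was -0.94 ± 0.11 (SE; 95% interval -1.17 to -0.71), 1.92-fold lower, with an adjusted p of 0.00136 in limma with Benjamini-Hochberg adjustment over all probes. DDMB thus had 1 of 8 tested probes called, beside 0.573% of all probes, and 5.55% of all probes lay below VC_1 without overlap. Both groups were on slide 1. The spots of 1 array differed by an SD of 0.073 to 0.24 over the 18 arrays, with a median of 0.12.

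**Figure D1:**
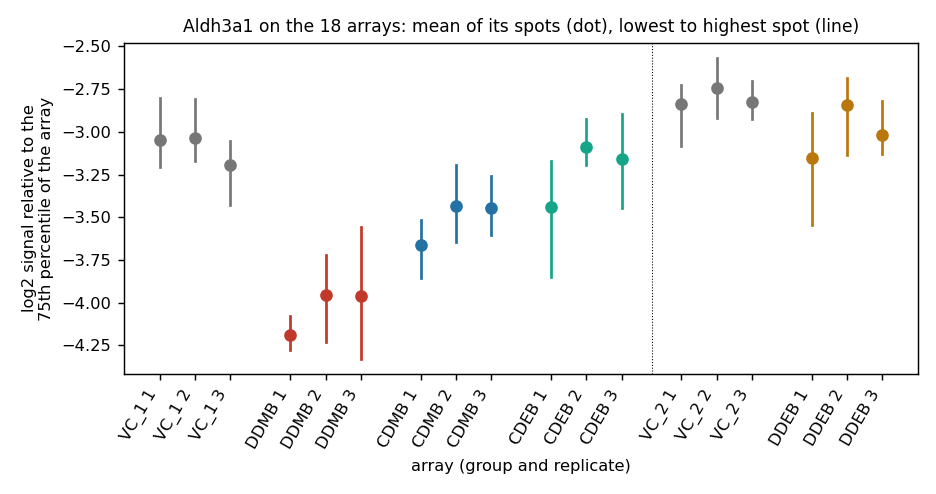
Relative signal of Aldh3a1 (log2, minus the 75th percentile of the array) on the 18 arrays. Each dot is the mean of the unflagged spots of 1 array, the line runs from its lowest to its highest spot, and the dotted line separates the chip lots. The DDMB arrays, between -4.19 and -3.95, are below all the others.

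The other compounds gave smaller Aldh3a1 differences that did not pass the test. CDMB arrays read -3.66, -3.43 and -3.45 (mean -3.51 ± 0.13, SD, n = 3), all below VC_1. The difference was -0.42 ± 0.11 (SE), with a limma adjusted p of 0.192. In this comparison 12% of all probes had every CDMB array below every VC_1 array. CDEB arrays read -3.44, -3.09 and -3.16 (mean -3.23 ± 0.18, SD, n = 3) and overlapped VC_1. Their difference was -0.14 ± 0.11 (SE), with an adjusted p of 0.582, and it turned to 0.21 with normexp background correction. On the other lot, VC_2 read -2.84, -2.75 and -2.83 (mean -2.80 ± 0.050, SD, n = 3) and DDEB read -3.15, -2.84 and -3.02 (mean -3.00 ± 0.15, SD, n = 3). Every DDEB array was below every VC_2 array, although the nearest pair is equal as rounded here. The difference was -0.20 ± 0.11 (SE), with an adjusted p of 0.401, and 6.03% of all probes lay below VC_2 without overlap.

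Among the groups of the VC_1 lot the order of Aldh3a1, from high to low, was VC_1, CDEB, CDMB, DDMB. VC_1 and CDEB overlapped, and so did CDEB and CDMB, though the 95% interval of CDMB minus CDEB, -0.52 to -0.053, lies below 0 before adjustment over probes. All compounds had the same dose and exposure time, so 6 pairs were compared, and for each pair p was adjusted over all probes and also over the 6 pairs together. Between DDMB and CDEB the difference was -0.81 ± 0.11 (SE; 95% interval -1.04 to -0.57), with an adjusted p of 0.00396 over probes and 0.0131 over the pairs as well. Between DDMB and CDMB it was -0.52 ± 0.11 (SE; 95% interval -0.75 to -0.29), with an adjusted p of 0.0451 over probes and 0.0814 over the pairs as well, so this call did not hold over the pairs. It was also lost without any 1 array of DDMB or CDMB (adjusted p from 0.0513 to 0.189). Each of these comparisons had 1 of 8 tested probes called, beside 3.25% of all probes for DDMB against CDEB and 0.624% for DDMB against CDMB. Both run across slides, and with slide as a random block neither passed (adjusted p = 0.9998 for DDMB against CDEB and 0.9996 for DDMB against CDMB). That fit cannot decide about Aldh3a1, because each of these compounds lay on 1 slide and 0 of 25306 probes were called in either comparison.

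The remaining pairs did not pass the test for Aldh3a1 or for any other probe of the group. CDMB was below CDEB on the same slide (difference -0.28 ± 0.11, SE; adjusted p = 0.895 over probes). The fall with DDEB against its own control, -0.20, was smaller than that with DDMB, -0.94. The DDEB change minus the DDMB change was 0.74 ± 0.15 (SE; 95% interval 0.41 to 1.07), with a limma adjusted p of 0.363 over probes and 0.0799 over the pairs as well. Against CDMB the corresponding difference of changes was 0.22 (95% interval -0.11 to 0.55), and against CDEB it was -0.064 (95% interval -0.39 to 0.26). Shares of all probes called in these comparisons were 0% for CDMB against CDEB, 0% for DDEB against DDMB, 0% for DDEB against CDMB and 0.00395% for DDEB against CDEB. At an unadjusted p under 0.05, limma gave 1 of the 8 member probes, that of Aldh3a1, for CDMB against CDEB and 1 for DDEB against DDMB, and none for the other two. Of all probes, 4.74% passed this level for CDMB against CDEB, 5.71% for DDEB against DDMB, 5.84% for DDEB against CDMB and 6.63% for DDEB against CDEB.

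The DDMB difference of Aldh3a1 lost its call in limma with normexp background correction (-0.40, adjusted p = 0.0932) and with only the arrays of that comparison in the fit (-0.94, adjusted p = 0.220). The normexp setting adds a constant to every spot, which shrinks log2 differences of dim probes. Processed intensities of the Aldh3a1 spots averaged 28.2 to 40.3 on the DDMB arrays and 64.8 to 70.1 on those of VC_1. The part of the constant in the smaller difference was not tested. Leaving out any 1 array of DDMB or VC_1 kept the call, with adjusted p between 0.00382 and 0.0127. Endothelial markers were lower as well with none called, and Pecam1, Lyve1 and Stab2 did not pass the filter. The mean relative signal of the 3 measured was -1.59 to -1.55 in VC_1 and -1.87 to -1.76 with DDMB. Kdr differed most, with group means of -4.40 in VC_1 and -5.02 with DDMB, where 2 of 3 arrays were well above background. Group means in VC_1 and with DDMB were -3.44 and -3.53 for Cdh5, and 3.14 and 3.10 for Vwf. The 4 measured Kupffer cell markers had means of -1.59 to -0.51 in VC_1 and -1.69 to -0.84 with DDMB. Differences from VC_1 with DDMB were above 0 for 5 of 6 measured stellate cell or fibroblast markers and 2 of 3 bile duct markers. The part of these cells in the Aldh3a1 difference was not tested. The 10 hepatocyte markers had means of 6.44 to 7.04 in VC_1 and 6.57 to 7.12 with DDMB, which overlap.

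Cyp1a1, the gene most used to read AhR activation, did not change with any compound by the test, and its control arrays were far apart. In VC_1 its relative signal was 3.40, 3.08 and 1.23, an SD of 1.17 (n = 3) that exceeded that of 99.6% of tested probes. DDMB arrays read 3.97, 2.72 and 3.24, overlapping VC_1, with a difference of 0.74 ± 0.64 (SE; limma adjusted p = 0.802). The low VC_1 value belonged to replicate 3. Its hepatocyte marker mean, 6.44, was also the lowest of the 18 arrays, and its part in the Cyp1a1 value was not tested.

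CDMB arrays read 3.73, 3.71 and 3.54 for Cyp1a1, all above VC_1, as were the CDEB arrays at 3.73, 3.59 and 3.50. The differences were 1.09 ± 0.64 (SE; adjusted p = 0.468) for CDMB and 1.03 ± 0.64 (SE; adjusted p = 0.491) for CDEB. This SE rests on 1 spread shared by the 6 groups, although the SD was 0.10 with CDMB and 0.11 with CDEB beside 1.17 in VC_1. Of all probes, 13.3% lay above VC_1 without overlap for CDMB and 15.6% for CDEB. Hepatocyte marker means were 7.05 to 7.15 with CDMB and 7.03 to 7.16 with CDEB, beside 6.44 to 7.04 in VC_1, and their part in the Cyp1a1 differences was not tested. Without VC_1 replicate 3 these differences were 0.42 and 0.37, and that of DDMB was 0.069, so 1 control array set most of their size. The 95% intervals with all arrays, -0.28 to 2.46 for CDMB and -0.34 to 2.41 for CDEB, include both 0 and more than a 4-fold increase.

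On the other lot, VC_2 read 3.97, 3.58 and 1.81 for Cyp1a1 and DDEB read 4.59, 4.22 and 2.55. Replicate 3 was the lowest in both groups, and the groups overlapped. The difference was 0.67 ± 0.64 (SE; adjusted p = 0.674), and it ran from 0.015 without VC_2 replicate 3 to 1.29 without DDEB replicate 3. By replicate number the differences were 0.62, 0.65 and 0.74. Within each control group the arrays with the same number stood at nearly the same distance from their mean: 0.83, 0.51 and -1.34 in VC_1 and 0.85, 0.46 and -1.31 in VC_2. The labels do not say whether these arrays share cells or RNA.

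**Figure D2:**
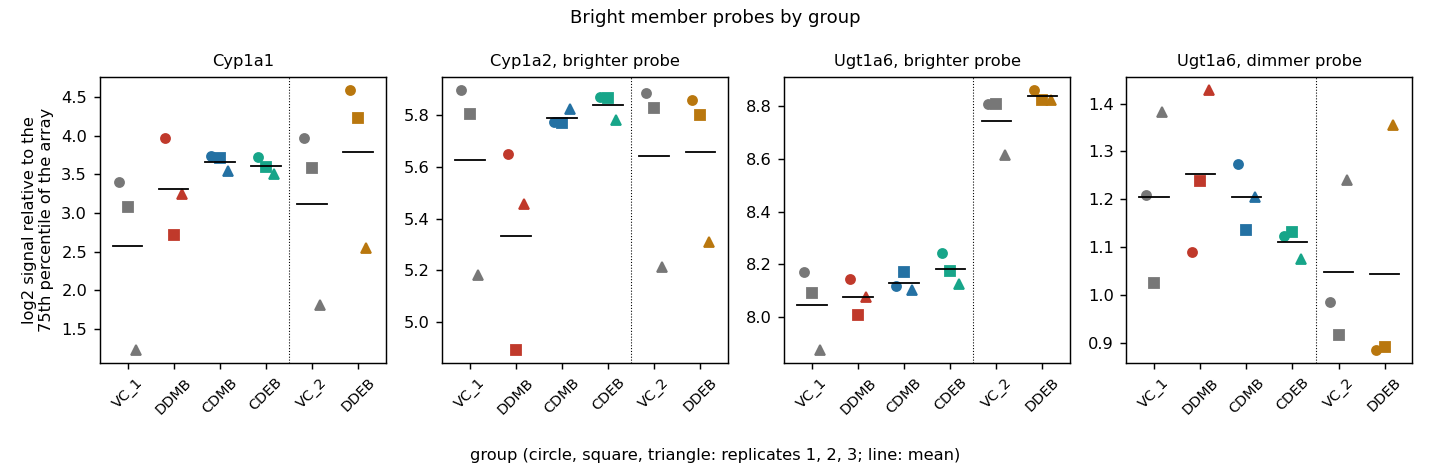
Relative signal (log2, minus the 75th percentile of the array) of the probes for Cyp1a1, the brighter Cyp1a2 probe and both Ugt1a6 probes, by group. Symbols are the 3 replicates, lines are group means and the dotted line separates the chip lots. Cyp1a1 spread from 1.23 to 3.40 in VC_1, whereas the CDMB arrays lay between 3.54 and 3.73.

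Cyp1a2, the liver enzyme that metabolises caffeine, did not pass the test with any compound in either probe. On the brighter probe VC_1 read 5.90, 5.81 and 5.18, and DDMB read 5.65, 4.89 and 5.46, a difference of -0.30 ± 0.23 (SE; limma adjusted p = 0.763). The lowest DDMB value was replicate 2, which was also the lowest DDMB array for the dimmer probe (0.89) and for the hepatocyte marker mean (6.57). CDMB read 5.78, 5.77 and 5.82, and CDEB read 5.87, 5.87 and 5.78, both inside the range of VC_1. On the dimmer probe the arrays ran from 1.22 to 1.87 in VC_1, from 0.89 to 1.68 with DDMB, from 1.78 to 1.89 with CDMB and from 1.70 to 1.78 with CDEB.

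DDMB arrays for Cyp1a2 lay below all CDMB and CDEB arrays on both probes, without passing the test. For CDMB the differences were -0.46 ± 0.23 (SE; adjusted p = 0.340) on the brighter probe and -0.46 ± 0.21 (SE; adjusted p = 0.295) on the dimmer one. For CDEB they were -0.51 ± 0.23 (SE; adjusted p = 0.237) and -0.38 ± 0.21 (SE; adjusted p = 0.318). Of all probes, 11.7% lay below CDMB and 14.9% below CDEB in this way. All 10 hepatocyte markers were lower with DDMB too, by medians of -0.23 against CDMB and -0.21 against CDEB with none called, and their part in the Cyp1a2 differences was not tested. On the other lot, VC_2 read 5.89, 5.83 and 5.21 on the brighter probe and DDEB read 5.86, 5.80 and 5.31, with replicate 3 the lowest in both. DDEB differed from VC_2 by 0.013 ± 0.23 (SE) on the brighter probe and by -0.021 ± 0.21 (SE) on the dimmer one.

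Ugt1a6, which conjugates phenols such as paracetamol with glucuronic acid, did not change with any compound by the test. Its brighter probe, printed as 10 spots, read 8.17, 8.09 and 7.88 in VC_1 and 8.14, 8.01 and 8.07 with DDMB, a difference of 0.030 ± 0.078 (SE; 95% interval -0.14 to 0.20). CDMB arrays lay between 8.10 and 8.17, inside the VC_1 range, and CDEB arrays between 8.12 and 8.24, which overlap it. The corresponding differences were 0.085 with CDMB, 0.13 with CDEB and 0.093 with DDEB, each with an SE of 0.078. The highest upper end of their 95% intervals was 0.30, with CDEB. All DDEB arrays, between 8.82 and 8.86, lay above VC_2, as did 10.1% of all probes, and the adjusted p was 0.619. The dimmer probe differed by 0.047 with DDMB, -0.00083 with CDMB, -0.095 with CDEB and -0.0039 with DDEB, each with an SE of 0.13. Ugt1a6 shares its later exons with other genes of the Ugt1a cluster, and which of them each probe detects was not tested.

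Both Ugt1a6 probes were also read between the DMSO groups, where no compound was involved. The brighter probe was at 8.81, 8.81 and 8.62 in VC_2, all above VC_1, as were 19.7% of all probes. The difference was 0.70 ± 0.078 (SE; limma adjusted p = 3.9e-05). The dimmer probe read 1.21, 1.02 and 1.38 in VC_1 and 0.99, 0.92 and 1.24 in VC_2, a difference of -0.16 ± 0.13 (SE; adjusted p = 0.466). The probes of this gene disagreed between the lots. Of the 8 tested member probes, 1 was called between the controls, beside 21.8% of all probes. Same-numbered arrays of these controls deviate together. With the replicate block 2 of 8 were called, beside 6419 of 25306 probes, and with only these 6 arrays and the block 5 of 8, beside 12612 of 25306. By number, VC_2 minus VC_1 was 0.57, 0.49 and 0.58 for Cyp1a1, 0.98, 0.92 and 1.13 for Cyp1b1, and -0.22, -0.11 and -0.14 for the dimmer Ugt1a6 probe, each with 1 sign. The Cyp1b1 probe was well above background on only 1 VC_1 and 2 VC_2 arrays. The untested Cyp1b1 probes, not well above background on any array, were higher in VC_2 too. Their means were -6.99 and -6.93 in VC_2, beside -7.67 for each in VC_1. Aldh3a1 was 0.29 ± 0.11 (SE) higher in VC_2 (adjusted p = 0.0709, and 0.0175 with the replicate block).

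Ahrr, the AhR repressor, and Cyp1b1, a P450 expressed mostly outside hepatocytes, were near the detection limit. The Ahrr probe was well above background on all 3 VC_1 arrays but on 1 DDMB, no CDMB, 1 CDEB, 1 VC_2 and no DDEB array. It read -5.01, -4.62 and -3.97 in VC_1 and -6.98, -4.58 and -5.45 with DDMB, which overlap (difference -1.14 ± 0.68, SE; adjusted p = 0.647). CDMB read -5.49, -5.02 and -5.43 and CDEB read -5.24, -5.08 and -5.12, all below VC_1. This probe entered the test through VC_1 alone, where it was high, so its lower values elsewhere were partly set by that filter.

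CDMB was not well above background for Ahrr on any array, and its difference from VC_1 was -0.78 ± 0.68 (SE; adjusted p = 0.618). That value was -0.037 with normexp background correction and -0.50 without VC_1 replicate 3. On the other lot the arrays, -6.69, -4.64 and -3.72 in VC_2 and -6.37, -4.91 and -4.95 with DDEB, overlapped. The difference was -0.39 (adjusted p = 0.836), with 1 of 3 VC_2 arrays measuring the probe, and it turned to 0.25 without VC_2 replicate 3 and to 0.086 without DDEB replicate 1. CDEB, measured on 1 of 3 arrays, differed from VC_1 by -0.61 ± 0.68 (SE; adjusted p = 0.697). Below VC_1 without overlap were 12% of all probes for CDMB and 14.2% for CDEB.

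The 1 tested Cyp1b1 probe entered the test through DDEB alone. It was well above background on all 3 DDEB arrays, 2 VC_2 arrays, 1 VC_1 array and 1 DDMB array, and on no CDMB or CDEB array. DDEB read -4.23, -3.53 and -4.33 against -4.18, -4.80 and -4.59 in VC_2, which overlap (difference 0.49 ± 0.43, SE; adjusted p = 0.634). VC_1 read -5.16, -5.73 and -5.72 and DDMB read -5.91, -7.20 and -4.95, a difference of -0.48 ± 0.43 (SE; adjusted p = 0.807). CDMB and CDEB, not well above background, were at -0.29 and -0.17 relative to VC_1, where only 1 array measured the probe, so no fold is given (adjusted p = 0.796 and 0.885). Without VC_1 replicate 1 the value was -0.099 for CDMB and 0.024 for CDEB. With normexp background correction the sign turned for Cyp1b1 with DDMB (0.017), CDMB (0.091) and CDEB (0.37), and for Ahrr with CDEB (0.26) and DDEB (0.047). Both probes are dim, and this setting adds a constant to every spot. Under it the medians over all tested probes were 0.016 with DDMB, 0.049 with CDMB, 0.085 with CDEB and 0.049 with DDEB. The part of the constant in these signs was not tested. The untested Cyp1b1 probes had relative signals from -7.84 to -6.54 and from -7.83 to -5.95 over the 18 arrays.

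**Figure D3:**
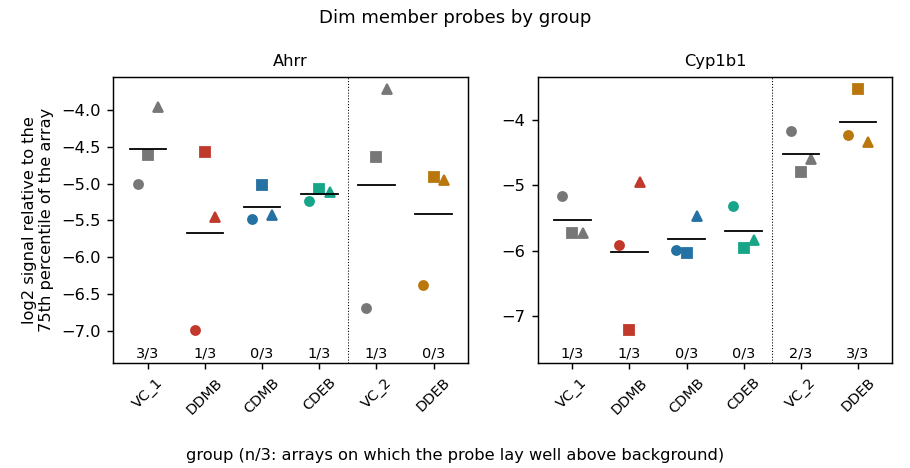
Relative signal (log2, minus the 75th percentile of the array) of the Ahrr and Cyp1b1 probes by group. Circles, squares and triangles are replicates 1, 2 and 3, lines are group means, and the fractions give the arrays on which the probe was well above background. Ahrr reached that level on all 3 arrays in VC_1 and Cyp1b1 on all 3 in DDEB.

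Over the 8 tested member probes, the median difference was -0.28 with DDMB, 0.042 with CDMB, 0.013 with CDEB and 0.0047 with DDEB, where DDMB, CDMB and CDEB share the VC_1 arrays. Over all 21574 genes tested, each by its brightest probe, the medians were 0.014, 0.015, 0.0069 and 0.014. With DDMB 3 of the 8 probes were above 0, and with each other compound 4 were. No member probe was called with CDMB (0.0435% of all probes), CDEB (0.107%) or DDEB (0.842%). At an unadjusted p under 0.05, limma gave 1 of the 8 member probes for DDMB and 1 for CDMB, both that of Aldh3a1, and none for CDEB or DDEB. Of all probes, 10% passed this level with DDMB, 13.1% with CDMB, 13.2% with CDEB and 14.9% with DDEB.

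**Figure D4:**
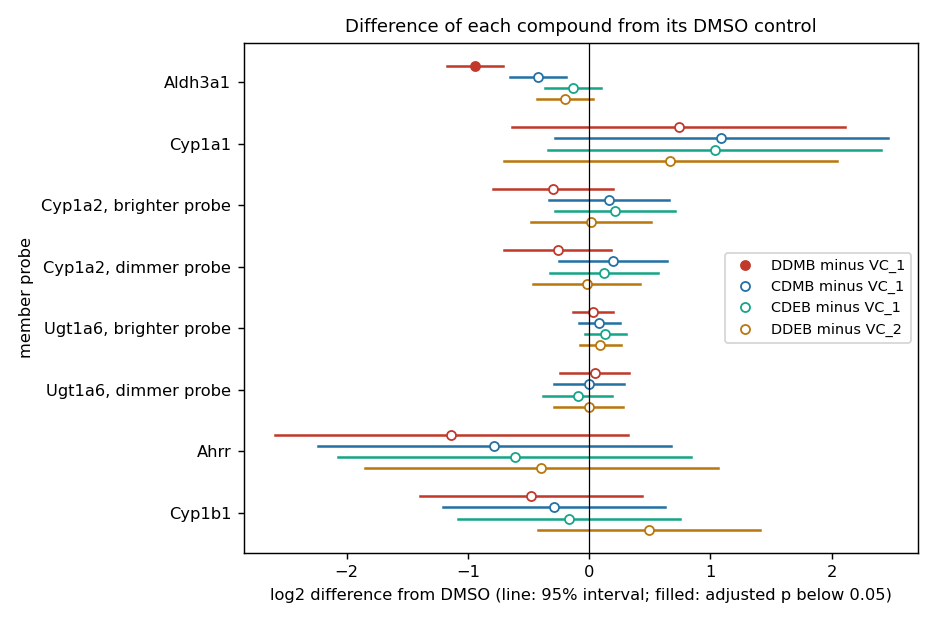
Log2 difference of each compound from its DMSO control for the 8 tested probes, with 95% intervals. The filled dot, Aldh3a1 with DDMB at -0.94, is the only difference with an adjusted p under 0.05, and the intervals of Cyp1a1, Ahrr and Cyp1b1 are the widest.

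RNA for the proteins that carry AhR and its signal was measured for 8 of 9 listed genes, and none of these genes was called with any compound. Ahr itself differed from its control by -0.053 with DDMB, 0.12 with CDMB, 0.048 with CDEB and 0.17 with DDEB, each with an SE of 0.081, and Arnt, its partner, by 0.19, 0.14, -0.018 and 0.089, each with an SE of 0.073. The list's medians were 0.10, 0.031, -0.00023 and 0.061, and unadjusted p was under 0.05 in limma for 3 genes with DDMB and for none with CDMB, CDEB or DDEB, beside 9.90%, 13.3%, 13.3% and 15.1% of all genes. Hsp90aa1, the chaperone that holds AhR in the cytoplasm, was 0.51 ± 0.12 (SE; adjusted p = 0.0357) higher with DDMB than with CDEB, a comparison across slides in which 3.25% of all probes were called. With slide as a random block no probe was called there (adjusted p = 0.9998 for Hsp90aa1). Its values against VC_1 were 0.26 with DDMB and -0.25 with CDEB, neither called. Between the controls, where 21.8% of all probes were called, 2 of the 8 genes were: Arnt2 rose by 0.43 and Ptges3 fell by 0.27 in VC_2 (limma adjusted p = 0.0207 and 0.00127). That share is near the one over all probes.

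Other known AhR targets gave no call with any compound either, for 12 of 15 listed genes measured. Slc7a5, a transporter of large neutral amino acids, was nearest with DDMB, at -0.86 ± 0.19 (SE; adjusted p = 0.0696), and it fell by 1.19 ± 0.19 (SE; adjusted p = 0.00726) in DDMB against CDEB. Hes1, a Notch-responsive repressor, was 0.34 ± 0.078 (SE; adjusted p = 0.0357) higher with DDMB than with CDEB. Both calls run across slides, beside 3.25% of all probes called, and both were lost with slide as a random block, as were all calls there (adjusted p = 0.9998 for each). With CDMB the largest values were 0.67 for Xdh and 0.61 for Fgf21, with CDEB 0.70 for Fgf21, and with DDEB 0.36 for Gsta2, none called. Nqo1, a quinone reductase that AhR and NRF2 share, differed by -0.12, -0.043, -0.10 and 0.073 with DDMB, CDMB, CDEB and DDEB, each with an SE of 0.14. The list's medians were 0.036, -0.056, -0.025 and 0.0069 with DDMB, CDMB, CDEB and DDEB, and unadjusted p was under 0.05 in limma for 1, 1, 2 and 2 of the 12 genes, beside 9.90%, 13.3%, 13.3% and 15.1% of all genes. In VC_2 against VC_1, 3 of the 12 genes were called, near the 21.8% of all probes: Gsta2 rose by 0.55, and Hes1 and Htatip2 fell by 0.45 and 0.43 (limma adjusted p = 0.0142, 0.00107 and 0.00166).

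Among 15 measured of 18 other aldehyde dehydrogenases, none was called with any compound. Aldh1a1, the retinaldehyde dehydrogenase, had the largest values, -0.65 ± 0.21 (SE; adjusted p = 0.240) with DDMB and -0.72 ± 0.21 (SE; adjusted p = 0.227) with CDMB. Aldh3a2, the fatty aldehyde dehydrogenase of the same subfamily as Aldh3a1, was at 0.27 with CDMB and 0.25 with CDEB, neither called. Aldh9a1 fell by 0.27 ± 0.065 (SE; adjusted p = 0.0404) in DDMB against CDEB, where 3.25% of all probes were called. This call across slides was lost with slide as a random block (adjusted p = 0.9998), as were all calls there. Medians were -0.051, 0.067, 0.11 and 0.026 with DDMB, CDMB, CDEB and DDEB, and unadjusted p was under 0.05 in limma for 3, 3, 2 and 2 of the 15 genes, beside 9.90%, 13.3%, 13.3% and 15.1% of all genes.

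All 10 listed targets of NRF2, the oxidative stress factor, were measured, and none was called with any compound. Osgin1 was at -0.51 ± 0.13 (SE; adjusted p = 0.103) and Slc7a11, the cystine transporter, at -0.65 ± 0.36 (SE; adjusted p = 0.605) with DDMB. Hmox1, haem oxygenase, was at 0.56 with CDMB and 0.71 with CDEB with an SE of 0.60, and Gclm at -0.99 with DDEB with an SE of 0.61. Medians were -0.090, 0.20, 0.14 and 0.12 with DDMB, CDMB, CDEB and DDEB. Unadjusted p was under 0.05 in limma for 1 gene with DDMB and for none with CDMB, CDEB or DDEB. Of all genes, 9.90%, 13.3%, 13.3% and 15.1% passed this level.

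**Figure D5:**
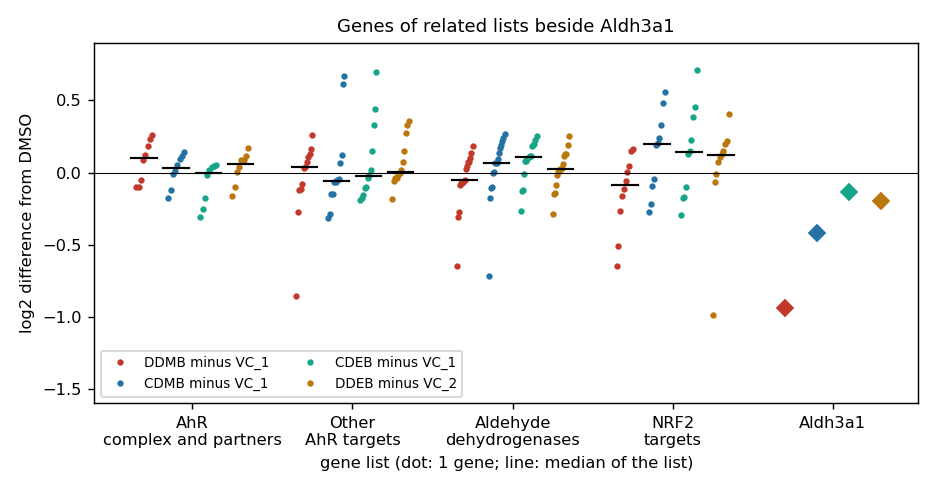
Log2 difference from the DMSO control for each gene of the 4 lists (dots, brightest probe of each gene) with the median of the list (line), beside Aldh3a1 (diamonds), by compound. Aldh3a1 with DDMB, at -0.94, is lower than every listed gene with DDMB, of which Slc7a5 at -0.86 is the nearest.

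The 5 named genes whose signal was most like that of Aldh3a1 were sought over the 18 arrays, after the control mean of the lot was subtracted, among 13770 probes with a gene name. They were Nsmf (Pearson r = 0.895), Slc17a4 (0.890), Nr4a1 (0.876), Igflr1 (0.869) and Smpdl3a (0.866). These arrays share lots, slides and controls, so r is a description. Their differences from VC_1 with DDMB were -0.23 for Nsmf, -0.48 for Slc17a4, a phosphate and urate transporter, -0.64 for Nr4a1, an orphan nuclear receptor, -0.42 for Igflr1 and -0.26 for Smpdl3a. The choice by likeness to Aldh3a1 used these arrays, so no test is given.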

How the data were processed

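Each of the 18 samples was hybridised to 1 one-colour Agilent array (Cy3). Per the file headers, Feature Extraction 10.7.1.1 wrote a processed intensity for each spot, with background subtracted and detrended, and the array design follows build rn4. The authors also deposited normalized signal per probe, linear and scaled in a way not stated in these sources, which served as an alternative.

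Unflagged spots of a probe were averaged as log2 intensity, from which the array's 75th percentile over probes was subtracted. Left out were 435 probes with every spot flagged on some array. A probe was tested if every array of any group had it well above background (25306 probes). The number of arrays limits the precision. limma 3.58.1 (R 4.3.3) fitted 6 group means to the 18 arrays together (12 residual degrees of freedom), with Benjamini-Hochberg adjustment and a threshold of 0.05. The fit was tested on simulated data. Accessions named 21109 probes (16581 genes, RefSeq GRCr8).

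Every member and every probe is reported, from each list the genes called or otherwise among the 3 with the largest change, and the 5 genes most like Aldh3a1. The members and lists were chosen with earlier results of these data known. Same-numbered VC_1 and VC_2 arrays deviated together (correlations 0.63, 0.47 and 0.81 over probes), so their numbers were taken as pairs, while those of each compound with its control did not all exceed 0.1. Replicate arrays correlated at 0.981 to 0.997, and no arrays were identical. Alternatives covered background correction, normalization, the dim-probe filter, probe choice, the arrays fitted, slide and replicate blocks, and leaving out each array. Normexp was run on the median spot signal, with a constant added to every spot, which shrinks log2 differences of dim probes.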

Additional observations from a re-analysis of the deposited data

Results flagged for a closer look

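Aldh3a1 differed between compounds given at the same dose and time. It was lower with DDMB than with CDEB (log2 difference -0.81, adjusted p = 0.00396 in limma over all probes, 0.0131 over the 6 pairs as well) and lower with DDMB than with CDMB (-0.52, adjusted p = 0.0451 over all probes, 0.0814 over the 6 pairs as well). With slide as a random block neither passed (adjusted p = 0.9998 and 0.9996), nor did any other probe, so that fit cannot decide about Aldh3a1. The DDMB and CDMB difference was called under 4 of 17 alternatives and in no fit that left out 1 array. All 3 DDMB arrays were below all CDEB and CDMB arrays. Of all probes, 14.9% lay below CDEB and 11.7% below CDMB in this way. DDMB was on slide 1 and the others on slide 4, and the slides cannot be told apart from the compounds. Groups of 3 arrays were not tested for outlying samples.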

How the results depend on the processing

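Member differences were recomputed with 44 results and 758 alternative values, of which 696 kept their direction and side of the threshold and 41 reversed, none of these called. DDMB against VC_1 had 0 of 8 member probes called with normexp, with only the arrays of the comparison, and with those arrays and the replicate block. DDMB against CDMB had 0 with normexp, quantile normalization, the authors' tables, no dim-probe filter, only its arrays (also with the replicate block), slide as a random block, and without each replicate in turn. DDMB against CDEB had 0 with only its arrays (also with the replicate block) and with slide as a random block. VC_2 against VC_1 had 2 called with no filter, with only its arrays and with the replicate block, and 5 with only its arrays and the replicate block. In the fit of all 18 arrays, the replicate block changed the count of member calls for no compound or pair of compounds. Over all probes, calls with DDMB numbered 145, but 65 with normexp, 61 with no dim-probe filter, 0 with only its arrays, 224 and 292 with slide as a random and fixed block, and 31 to 227 without single arrays. With DDEB they numbered 213, but 60 with normexp, 374 with quantile normalization, 0 in the authors' tables and with only its arrays, 390 with slide as a fixed block, 457 with the replicate block, and 52 to 390 without single arrays. Between DDMB and CDEB they numbered 822, and between DDMB and CDMB 158, and both were 0 with slide as a random block. The cause of these changes was not tested, except that fits of only 6 arrays have fewer residual degrees of freedom. The replicate block on few arrays and the 75th percentile over all spots were chosen after seeing the data.

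Reversed values, in log2, were these. With normexp, Cyp1b1 was 0.017 with DDMB, 0.091 with CDMB and 0.37 with CDEB, the dimmer Ugt1a6 probe 0.0075 with CDMB, Ahrr 0.26 with CDEB and 0.047 with DDEB, Aldh3a1 0.21 with CDEB, and Cyp1a2 -0.063 (brighter probe) and 0.0043 (dimmer probe) with DDEB. With quantile normalization the brighter Ugt1a6 probe was -0.015 with DDMB and the brighter Cyp1a2 probe -0.0062 with DDEB. In the authors' tables the dimmer Ugt1a6 probe was 0.0012 with CDMB. With slide as a random or fixed block the dimmer Cyp1a2 probe was 0.0077 or 0.034 with DDEB. Leaving out single arrays, Cyp1b1 ranged from -1.02 to 0.11 with DDMB and -0.36 to 0.024 with CDEB. The dimmer Ugt1a6 probe ranged from -0.044 to 0.14 with DDMB, -0.091 to 0.088 with CDMB and -0.16 to 0.093 with DDEB, and the brighter one from -0.055 to 0.093 with DDMB and -4.3e-05 to 0.15 with CDMB. The brighter Cyp1a2 probe ranged from -0.063 to 0.30 with CDMB, -0.014 to 0.34 with CDEB and -0.20 to 0.19 with DDEB, and the dimmer one from -0.0053 to 0.32, -0.079 to 0.24 and -0.22 to 0.085. Ahrr ranged from -1.23 to 0.25 with DDEB, and for Aldh3a1 the DDEB change minus the CDEB change from -0.17 to 0.0100.

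Numbers were not taken to pair compounds with controls. Correlations of same-numbered arrays were 0.56, -0.43 and 0.095 for VC_1 with DDMB, where arrays of different numbers reached 0.64. For VC_2 with DDEB they were 0.42, 0.096 and 0.49. Some arrays of a compound and its control thus deviated together, and the labels do not say why. By number, the Cyp1a1 differences of DDEB from VC_2 were 0.62, 0.65 and 0.74, and with those arrays and the replicate block the adjusted p was 0.310. Signal over background limits Ahrr and Cyp1b1.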
